A study of Homo sapiens with 18 samples.

Results

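The genes described here encode 10 secreted proteins of the extracellular matrix, chosen by name: *CCN1*, *CCN2*, *FN1*, *THBS1*, *TNC*, *SPARC*, *SPP1*, *VTN*, *NID1* and *NID2*. The rule used names only, but the choice was made with earlier results of these data known. All 10 were found among the 21944 genes listed in the deposited table, each at 3 times. The study reseeded human pancreatic progenitors on the laminin isoform LN411 or on fibronectin (FN) and collected RNA for sequencing after 3, 6 or 24 h. The 6 groups, FN 3 h, FN 6 h, FN 24 h, LN411 3 h, LN411 6 h and LN411 24 h, had 3 samples each, 18 samples in all. All groups shared the differentiation to day 19, the dissociation with accutase and the transfer to a coated 24-well plate, so that no group was left undisturbed. The labels give the line both as HUES4 and as an SA121-derived NGN3-GFP reporter line, 2 different human embryonic stem cell lines, and the study's description of this sequencing names NGN3-GFP.

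The value used is the authors' mean normalized count of each gene, that is, the mean over all samples of read counts divided by a size factor for each library. It joins both matrices and all 3 times into a single number, which was the same for a gene at every time to within a relative gap of 4.89e-07. It therefore says how much RNA of a gene the progenitors contained on average, not whether the gene differed between LN411 and FN. The difference between LN411 and FN was not analysed here, because values of single samples were not used and the authors' own comparison was left aside. For the same reason no error, number of replicates or p-value can be placed beside a level, and the depth of single libraries is unknown. Fewer cells expressing a gene and less RNA per cell cannot be told apart in these bulk samples.

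The matrix around cells holds structural proteins and, bound to them, matricellular proteins that act on cells more than they bear load. CCN1 and CCN2, formerly CYR61 and CTGF, are matricellular proteins that bind integrins and heparan sulphate, and their genes are textbook targets of YAP, the coactivator that enters the nucleus when cells spread and pull on their matrix and there binds TEAD factors on DNA. Thrombospondin 1, tenascin C, SPARC and osteopontin (the product of *SPP1*) are further matricellular proteins. Fibronectin and vitronectin are adhesive glycoproteins bound by integrins, and the nidogens link laminin to collagen IV in basement membranes. Fibronectin is also the protein with which the FN wells were coated, but a coated protein yields no reads, so that the *FN1* value refers to RNA of the cells.

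The labelled cell type was compared with its markers. All 10 markers of pancreatic progenitors were listed, 9 of them above the median of all genes. Mean normalized counts were 12933 for *PDX1*, 20672 for *SOX9*, 3040 for *NKX6-1* and 135959 for *GP2*, the highest. The lowest, *PTF1A* at 12.51, lay below the median. Of the pluripotency markers, *POU5F1* and *NANOG* were not among the listed genes and *LIN28A* had 10333. Of the endocrine markers, 4 of 8 lay above the median of all genes. The highest was *CHGA* at 4312 and the lowest *INS* at 8.32, with *NEUROG3* at 450.8. All 5 endothelial markers lay at or below 75.04. Of 8 mesenchymal markers, 7 were listed, from 14.31 for *TWIST1* to 45110 for *COL1A2*, while *DCN* was not. Of these 7, 4 lay above the median of all genes. All 7 liver markers were listed above the median of all genes, from 639.9 for *ALB* to 141038 for *FGB*.

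Among the members whose promoter could be searched, *CCN2* held most copies of the TEAD core, and this stretch is shown first for that reason. Promoter sequences were those of RefSeq on GRCh38.p14, with 250 bases before and 50 after the start of the gene, and the table used here held 9 of the 10 genes. The promoter of *CCN1* was not analysed here. The RefSeq starts of *VTN* and *SPARC* lie within the spans that GENCODE gives these genes. The letters GGAATG, the core bound by TEAD factors, were searched on both strands. The last 180 bases before the start of *CCN2*, on the minus strand at chr6:131951373-131951552, read 5′ to 3′ as follows, with the TEAD cores and the TATA box (TATAAA) in capitals.

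CCN2: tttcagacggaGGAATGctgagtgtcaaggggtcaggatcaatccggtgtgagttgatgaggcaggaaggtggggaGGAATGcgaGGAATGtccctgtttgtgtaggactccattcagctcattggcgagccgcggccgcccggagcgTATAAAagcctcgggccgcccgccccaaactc

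The 3 cores of *CCN2* began 169, 104 and 95 bases before the start, all on the strand of the gene, and the TATA box began 32 bases before it. Across the 34943 different RefSeq promoters of the same length, 14.0% held the core at least once and 0.126%, or 44 promoters, held it 3 times or more. The TATA box letters were found in 11.6% of all promoters. Among the other genes with an entry, *THBS1*, *SPARC* and *VTN* held 1 core each, and the short stretches around it are shown next to compare the neighbouring letters.

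THBS1: gaggaatccccaGGAATGcgagcgcccctt

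SPARC: taaacccctccaCATTCCcgcggtccttc

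VTN: cccagtgttccaGGAATGtgacctttgctg

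These stretches lie at chr15:39581021-39581050 on the plus strand for *THBS1*, at chr5:151686916-151686944 on the minus strand for *SPARC* and at chr17:28370394-28370423 on the minus strand for *VTN*. The core of *SPARC* lies on the strand opposite to the gene, and capitals mark it as its reverse complement. It began 17 bases before the start, that of *THBS1* 46 bases and that of *VTN* 104 bases before it. *FN1*, *TNC*, *SPP1*, *NID1* and *NID2* had no match in this window. *CCN2* was also the member with a TATA box, which the other 8 promoters lacked in these letters. This 1 of 9 is close to the 11.6% of all promoters that held the TATA box letters. None of the 9 held the CArG box recognised by SRF, which 1.30% of all promoters held. Such matches describe letters in a window of 300 bases and are not shown binding sites.

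**Figure D1:**
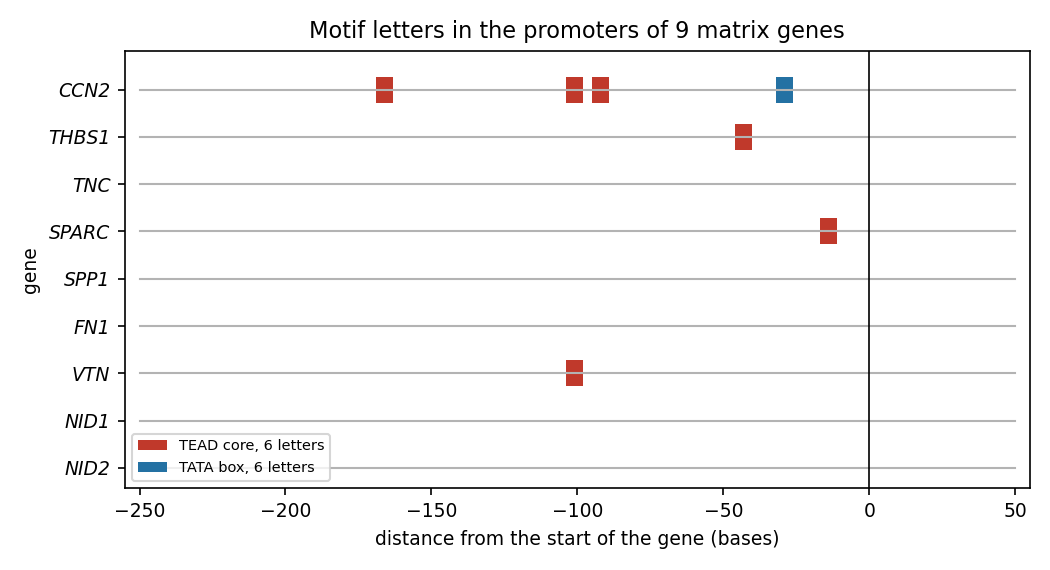
Positions of the TEAD core (red) and of the TATA box (blue) in the promoters of 9 matrix genes, in bases from the start of the gene, where each grey line is the searched window. *CCN2* holds 3 cores and the TATA box, *THBS1*, *SPARC* and *VTN* hold 1 core each, and the other 5 genes hold neither.

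*CCN1* (ENSG00000142871) lies on chromosome 1 of GRCh38, plus strand, from 85580761 to 85584589, and *CCN2* (ENSG00000118523) on chromosome 6, minus strand, from 131948176 to 131951372. Both are short genes of 5 exons. *CCN1* had a mean normalized count of 5058, which ranked 2351 among the 21944 genes, and *CCN2* had 5762, which ranked 2031. *CCN2* was thus 1.14 times as high as *CCN1* before length was taken into account. Both lay far above the median of all genes, which was 297.1, and in the top 25%, which began at 2071.

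The other members of the CCN family were lower. *CCN3* had a mean normalized count of 105.4 and *CCN4* 43.3, and *CCN5* and *CCN6* were not among the listed genes. Per kilobase of the longest annotated transcript, the scale on which different genes can be compared, *CCN2* had 2464, *CCN1* 1642, *CCN3* 42.8 and *CCN4* 8.34. *CCN1* and *CCN2* thus had the highest levels per kilobase of the 4 listed CCN genes.

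Of the other matricellular genes, *SPARC*, which encodes a collagen-binding protein of remodelled matrix, was the highest. It lies on chromosome 5 from 151661096 to 151686975 and had a mean normalized count of 34080, rank 176 of all genes. *THBS1*, on chromosome 15 from 39581079 to 39599466, encodes thrombospondin 1, an activator of latent TGF-beta, and had 9424, rank 1074. *SPP1*, on chromosome 4 from 87975667 to 87983532, encodes a ligand of αv integrins and CD44 and had 1781, rank 6031, just outside the top 25%. *TNC*, on chromosome 9 from 115019575 to 115118207, encodes tenascin C and had 150.2, rank 12256. It was the member whose level lay below the median of all genes.

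The adhesive glycoproteins stood at the upper end. *FN1*, on chromosome 2 from 215360440 to 215436073, had a mean normalized count of 716487, the highest of all 21944 genes by count, and rank 19 per kilobase of its longest transcript. This was 1.35% of the summed mean normalized counts of all genes and 88.3% of the sum over the 10 members. *VTN*, on chromosome 17 from 28367284 to 28373091, encodes vitronectin, a plasma and matrix protein made mainly by the liver, and had 24306, rank 295. Fibronectin is likewise a major liver product. The 7 liver markers summed to 269110 in the same samples, with *ALB* at 639.9 and the other 6 from 13608 to 141038, and the part of such expression in the *VTN* and *FN1* levels was not tested.

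Both nidogen genes were in the top 25%. *NID1*, on chromosome 1 from 235975830 to 236065109, had a mean normalized count of 11336, rank 836, and *NID2*, on chromosome 14 from 52004809 to 52069059, had 2933, rank 4202. *NID1* was 3.87 times as high as *NID2* by count and 3.25 times per kilobase of the longest transcript.

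**Figure D2:**
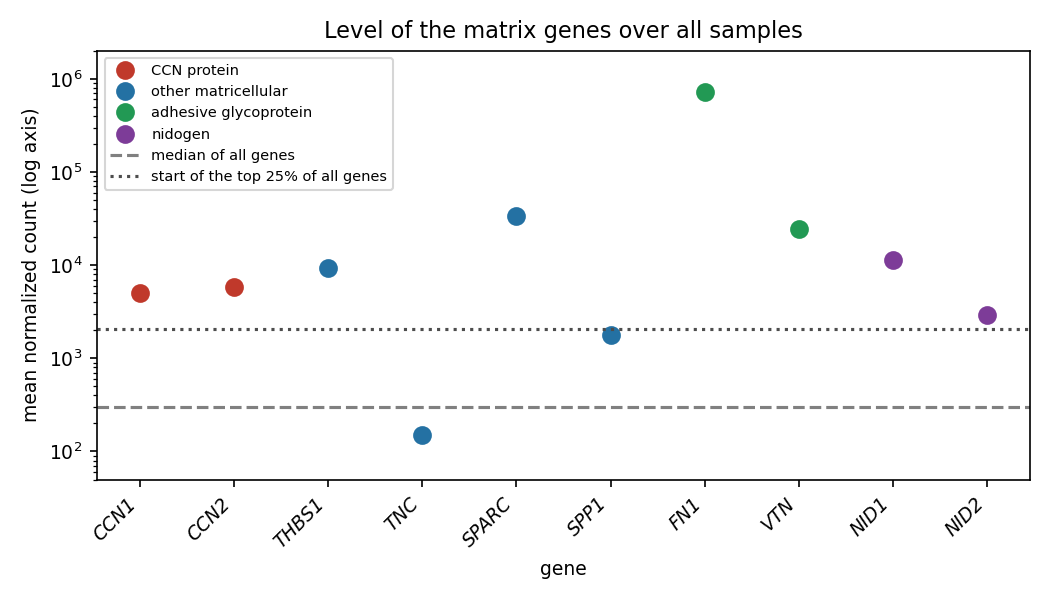
Authors' mean normalized count (log axis) of each matrix gene over all 18 samples, coloured by role, with 1 point per gene and no error bar because the value is a single mean. *FN1* at 716487 stands above all others, *TNC* at 150.2 lies below the dashed median of all genes at 297.1, and 8 of the 10 genes lie above the dotted line at 2071 where the top 25% begin.

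A long transcript gives more reads than a short one at the same number of molecules, so that *CCN1* and *CCN2* were compared with the other 8 genes per kilobase. With the longest transcript of GENCODE v44 as the length, *FN1* had 78125 mean normalized counts per kilobase, *VTN* 14948 and *SPARC* 9875, all above *CCN2* at 2464. *NID1* followed with 1957 and lay between *CCN2* and *CCN1* at 1642. Below both CCN genes were *THBS1* with 1210, *NID2* with 602.2, *SPP1* with 438.1 and *TNC* with 17.67. *CCN1* and *CCN2* were thus in the middle of the group, at orders 6 and 4 of 10, while by count they were at orders 7 and 6.

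*FN1* was 47.6 times as high as *CCN1* per kilobase and 31.7 times as high as *CCN2*. *VTN* was 9.10 and 6.07 times as high, and *SPARC* 6.01 and 4.01 times. *TNC*, in contrast, was 93.0 times lower than *CCN1* and 140 times lower than *CCN2*. Between *FN1* and *TNC*, the levels per kilobase spanned a factor of 4422. The median of the 10 genes was 1800 per kilobase, against 99.6 over all genes with a length.

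How firm this order is depends on the length assumed, since the table does not say which transcripts were expressed. Over 5 lengths (longest, canonical and median transcript, merged exons and coding length), *FN1*, *VTN* and *SPARC* were above both CCN genes each time, with *FN1* 21.8 to 126 times above *CCN1* and 16.9 to 122 times above *CCN2*. *TNC* and *SPP1* were below both each time, *TNC* by 44.3 to 195 times against *CCN1* and *SPP1* by 1.95 to 5.57 times. *NID1* was below *CCN2* under every length, but its ratio to *CCN1* ran from 0.685 to 1.43. *THBS1* and *NID2* were below both CCN genes except under the median transcript. That length is 550 bases for *THBS1*, against 7789 for its longest transcript, and 811 against 4870 for *NID2*. *CCN2* itself, with 1 annotated transcript, was 1.03 to 1.80 times as high as *CCN1*.

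**Figure D3:**
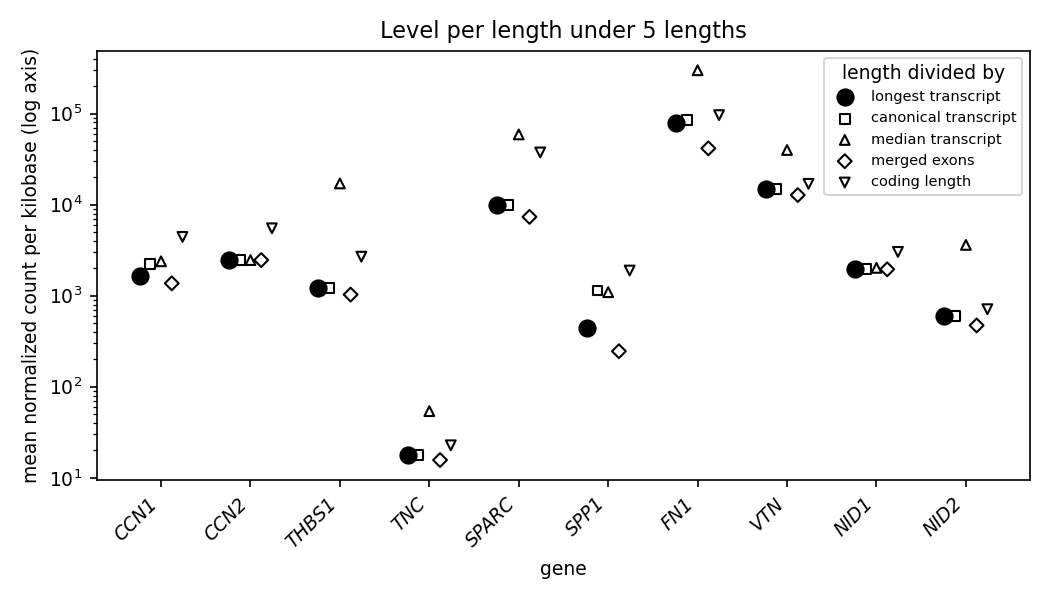
Mean normalized count per kilobase (log axis) of each gene under 5 lengths, with the filled circle for the longest transcript and open symbols for the others. *FN1*, *VTN* and *SPARC* stay above *CCN1* and *CCN2* under all 5 lengths, while the triangle of *THBS1* and of *NID2*, for the median transcript, lies well above their other symbols.

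Where a gene shares exons with a neighbour, reads from the shared part can be assigned to either gene or discarded. The authors counted reads with the GeneCounts option of STAR, and the study's text does not state whether the strand was used. In GENCODE v44, 30.7% of the exonic bases of *NID2* overlap *RTRAF* on the opposite strand, and 17.3% of those of *VTN* overlap another protein-coding gene model (ENSG00000273171) on the same strand. For *CCN2*, 11.9% overlap the antisense transcript *LINC01013*. *THBS1* shares 4.89% with *FSIP1* and 4.49% with *THBS1-AS1*, and *SPARC* 4.12% with *CLMAT3*, all on the opposite strand. *CCN1* and *FN1* overlap no other annotated gene, and *NID1* shares no exonic base with one. The shared part was 2.7% for *SPP1* and 1.35% for *TNC*. Counting by the authors used GENCODE v32, whose overlaps were not examined. How many reads the shared parts moved was not tested.

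The families to which the members belong were followed in lists made by family and role. Among the thrombospondins, *THBS1* was the highest with 1210 per kilobase, followed by *THBS4* with 660.8 and *THBS3* with 258.3, while *COMP* had 4.07 and *THBS2* was not among the listed genes. The tenascins were low throughout, with *TNC* at 17.67, *TNXB* at 14.58 and *TNN* at 1.77 per kilobase, and *TNR* was not listed. In the SPARC family, *SPARC* at 9875 per kilobase was followed by *SPOCK2*, which encodes a testican proteoglycan, at 7782 and by *FSTL1* at 4874, and the lowest was *SPARCL1* at 5.26. By count before length, *SPOCK2* with 41465 was above *SPARC*. Of the 5 SIBLING genes, which encode phosphoproteins of mineralised tissue, *SPP1* was the 1 member listed.

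The partners that nidogens hold together were among the most abundant RNAs. All 15 listed laminin, collagen IV, collagen XVIII, perlecan and agrin genes had a mean normalized count of at least 10 and 14 lay above the median of all genes. *LAMA1*, a chain of laminin-111, was the highest with a mean normalized count of 177392, or 17100 per kilobase, and *HSPG2*, which encodes perlecan, had 143219, or 9987 per kilobase. *LAMA4*, the α chain found in LN411 itself, was the lowest with 21.01, or 2.91 per kilobase. The α chain of the laminin used as a coat thus had a lower level per kilobase in the cells than the α chains *LAMA1* and *LAMA5*, the latter with 1588.

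Of 20 receptor genes for the members, 18 had a mean normalized count of at least 10, a share close to the 88.1% of all listed genes that reached this value, and 14 were above the median of all genes. *ITGB1*, the β chain of fibronectin and laminin receptors, was the highest with 43550, or 7757 per kilobase, and *ITGB3*, the β chain of a vitronectin and osteopontin receptor, the lowest with 7.90, or 1.33 per kilobase. The vitronectin-binding partners *ITGAV* and *ITGB5* had 13729 and 10702, and *ITGA5*, the α chain of the fibronectin receptor, had 7464. *CD44*, a receptor for osteopontin, had 166.7, and *CD36*, a receptor for thrombospondin, 32.21. All 6 genes of the YAP and TEAD list were above the median of all genes, from 310.0 for *TEAD4* to 8721 for *YAP1*. The 9 lists name 71 genes, of which 63 were listed and 60 had a mean normalized count of at least 10. This is 84.5% of the genes named and 95.2% of those listed, against 88.1% of all listed genes, so that the count says nothing particular about these lists.

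**Figure D4:**
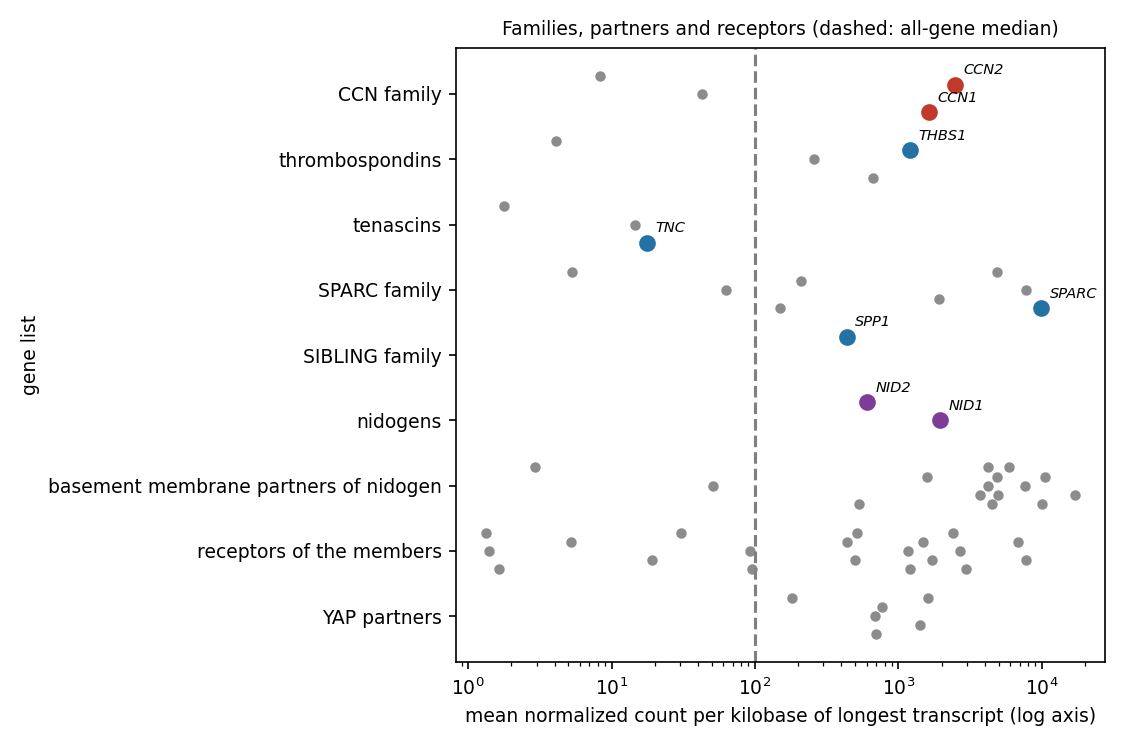
Mean normalized count per kilobase of the longest transcript (log axis) for the listed genes of 9 families and partner lists, with members of the group in colour and named, other genes in grey and the median of all genes (99.6) as a dashed line. *CCN1* and *CCN2* lie apart from the other CCN genes, all tenascins lie left of the dashed line and most partners of nidogen lie far to its right.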

How the data were processed

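RNA was sequenced from 18 samples of pancreatic progenitors reseeded on LN411 or FN. The authors aligned reads with STAR (2.7.2d, per the labels) to GRCh38.p13, counted them per gene with GENCODE v32 and fitted DESeq2 (1.34.0, per the labels). The deposited table gives, for each gene, a mean normalized count, which is a signal the authors obtained by dividing counts by size factors and taking the mean of all libraries. Its 5 columns of the authors' own comparison (log2 fold change, standard error, statistic, p-value and adjusted p-value) were not used. The table holds 0 other columns of values, so the planned test of LN411 against FN was not run.

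The 10 genes and the gene lists were chosen with earlier results of these data known. Named genes are the members and, for each list, chiefly its highest and lowest gene; others in the lists were named after their values were seen. Rank and quartile were taken over all 21944 genes. Lengths and positions came from GENCODE v44 on GRCh38, matched by Ensembl identifier for 99.6% of genes. GRCh38 patch releases keep the coordinates of the chromosomes used. Alternatives were other lengths, a pseudocount of 1, minimum counts of 1, 10 and 100, the rows of single times and other motif letters. The code was tested on toy inputs. Versions were Python 3.11.15, pandas 2.3.3, numpy 2.4.6, matplotlib 3.10.9 and scipy 1.17.1.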

Additional observations from a re-analysis of the deposited data

How the results depend on the processing

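The number of members in the top 25% was 8 among all genes and among the 19329 genes whose mean normalized count reached 10. It was also 8 in the rows of each time, where a gene's value is the same and only the genes listed differ. Single percentiles changed by −7.6 to 0.0 points under these settings. Per kilobase, 4 of the other 8 members lay above *CCN1* and 3 above *CCN2* with the longest transcript. With the median transcript these became 5 and 5, as *THBS1* and *NID2*, whose median transcripts are far shorter than their longest, lay above both CCN genes and *NID1* lay below both. Canonical transcripts and merged exons were added after the data were examined, and with canonical transcripts or coding length 3 members lay above *CCN1*. A pseudocount of 1 keeps the order of the genes, so it could not change the number of members above *CCN1* or *CCN2*. Of the 71 genes in the family lists, 60 had a mean normalized count of at least 10 and 54 of at least 100. The share of all listed genes was 88.1% at 10 and was not computed at 100. A minimum of 1 could not remove any of the 63 listed, because the lowest value of all listed genes was 2.704. Of the 9 members with a promoter entry, the TEAD core was found in 4, its 7-letter form GGAATGT in 3 and CATTCCA in 0. The shares over all promoters were 14%, 3.47% and 4.18%, in the same order. The TATA and CArG letters were also added later. Leaving out replicates, normalization, filters on counts per sample and the replicate number as a term were not run. No paired analysis was possible because the value used here is a single mean over all samples. Depth limits cannot be stated for a mean over all samples.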
